A study of Mus musculus with 10 samples.

Results

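The 56 genes described here control energy metabolism: insulin and its signalling, adipokines, lipid and glucose metabolism, and appetite. They were taken as a named list out of 21755 protein-coding genes of GENCODE M21 on chromosomes 1 to 19 and X, and each gene was given a window of its body and 10 kb on each side. Chromatin accessibility was measured by ATAC-seq, an assay that tags open DNA with the Tn5 transposase, in mature sperm from the cauda epididymis of wild-type C57BL/6JRccHsd males acquired at 3 weeks of age. F0 CD males (n = 6) received a chow maintenance diet with 14% protein and F0 WD males (n = 4) a Western diet with 40% of its energy from fat and 43% from carbohydrate, both for 6 months. The question was whether the paternal diet changed which of these genes carried open chromatin in sperm. Each mouse gave 1 library and 1 list of peaks, the intervals in which reads exceeded the local background. No read counts were analysed, so a gene was described by its number of peaks.

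Insulin from the pancreas binds its receptor on liver, muscle and fat, and passes its signal through the insulin receptor substrates, PI3-kinase, AKT and mTOR to glucose uptake and lipid synthesis. Leptin from fat cells restrains appetite in the hypothalamus, and the PPAR receptors and their PGC-1 coactivators set fatty acid oxidation. Mature sperm transcribe almost no genes and carry most of their DNA on protamines, so peaks in sperm mark the remaining open sites and do not measure expression.

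The lists held 13601 to 29532 peaks in F0 CD and 13366 to 19526 in F0 WD, and the longest was F0 CD replicate 2. The smallest summits that passed as peaks held 9 to 13 reads, and the lowest local background, a measure of relative depth, was 2.46 to 4.42 reads in F0 CD and 2.11 to 3.71 in F0 WD. Sperm and spermatid marker genes gave little to check the labelled cell type with, since Prm1, Odf1 and Gapdhs each had a promoter peak in 1 library and Prm2, Tnp1, Tnp2, Odf2 and Pgk2 in none. Promoter peaks were as rare at 5 epithelial markers and 5 leukocyte markers, with 0 or 1 library each, and Kit and Stra8 of the early germ cell markers had 2 each. Outside promoters, however, the markers of other cells held more peaks over the 10 libraries, with 0 or 1 at each sperm and spermatid marker, 2 to 7 at the epithelial markers (7 at Krt8 and 6 at Cdh1), 0 to 5 at the leukocyte markers, and 15 at Kit, 16 at Dmrt1 and 2 at Stra8. Per 100 kb of window and library, all peaks came to 0.290 for the sperm and spermatid, 1.18 for the epithelial, 1.43 for the early germ cell and 0.531 for the leukocyte markers. All protein-coding genes had 0.783 on this measure. The median windows of the markers were 26.1, 27.8, 101.8 and 32.6 kb in the same order. By qPCR of sperm RNA, the paper reported no detectable contamination by testicular germ cells (C-kit, here Kit) or epithelial cells (E-cadherin, here Cdh1). The part of other cells in the peaks of the members was not tested. Since sperm were profiled in bulk, fewer cells with an open site and less signal per cell cannot be told apart.

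Across the 10 libraries 406 peaks fell in the windows of the 56 genes, 0.2255% of all 180022 peaks. Of these, 57 lay within 3 kb of a start site of the gene, here called promoter peaks, and the others in the gene body or its flanks. At least 1 peak was found at 53 of the genes (94.6%), beside 78.8% of all protein-coding genes, and the median window was longer for the members, at 48.1 kb against 37.4 kb. The peaks were modest, with a median of 15 reads at the summit (9 to 35), and stood at a median rank of 56.2% in their own list, counted from the strongest peak.

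The gene windows of F0 CD replicates 1 to 6 held 39, 61, 30, 31, 34 and 47 peaks, and those of F0 WD replicates 1 to 4 held 40, 46, 46 and 32. The groups overlapped throughout, with means of 40.3 ± 11.9 (SD, n = 6) and 41 ± 6.63 (SD, n = 4). F0 CD replicate 2, with the longest list, also had the highest count. As a share of the list, member peaks made up 0.219% ± 0.0437 in F0 CD and 0.245% ± 0.0356 in F0 WD, a difference of 0.0257 percentage points that was smaller than either SD. Between 20 and 28 of the genes had a peak in a given F0 CD library and between 22 and 26 in a given F0 WD library.

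**Figure D1:**
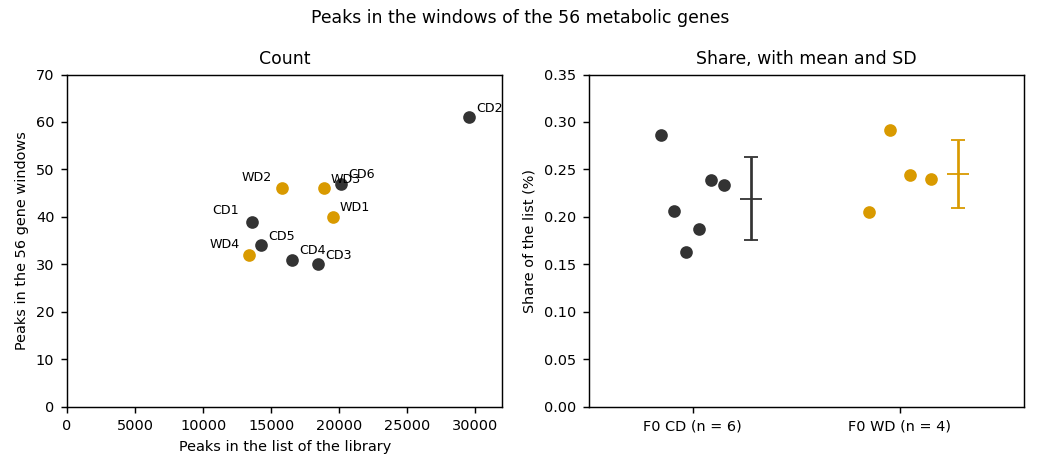
Peaks in the windows of the 56 genes, as a count against the length of the peak list of each library (left) and as a share of the list in percent (right), with F0 CD in black and F0 WD in orange; each point is 1 library, and the bars on the right are the mean and SD. The 4 F0 WD libraries lie between 32 and 46 peaks, inside the F0 CD range of 30 to 61.

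Open sites in the windows recurred between mice at a few places, and the sequences there are shown because they share a feature that the choice of genes did not use. Merging overlapping peaks of all libraries gave 285 regions in the windows, of which 235 (82.5%) had a peak in a single library, beside 78.3% of the other regions of the genome. The remaining 50 were found in at least 2 libraries. In 8 of them a peak was called in 6 or more libraries, and the 120 bases around the strongest summit of 4 of these, at Agrp, Lep, Slc2a2 and Igf1, are given below in GRCm38 (mm10). Capitals mark stretches where CA or TG was repeated at least 4 times.
Agrp region (chr8:105592913-105593032, + strand): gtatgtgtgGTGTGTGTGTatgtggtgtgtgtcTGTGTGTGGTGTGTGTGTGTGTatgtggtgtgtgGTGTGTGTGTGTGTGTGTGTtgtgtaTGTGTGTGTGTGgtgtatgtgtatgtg
Lep region (chr6:29080469-29080588, + strand): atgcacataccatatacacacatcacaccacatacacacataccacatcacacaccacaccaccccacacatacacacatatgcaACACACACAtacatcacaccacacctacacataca
Slc2a2 region (chr3:28700448-28700567, + strand): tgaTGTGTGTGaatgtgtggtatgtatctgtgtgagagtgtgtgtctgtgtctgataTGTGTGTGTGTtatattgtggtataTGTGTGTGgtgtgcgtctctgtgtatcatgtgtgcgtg
Igf1 region (chr10:87916590-87916709, + strand): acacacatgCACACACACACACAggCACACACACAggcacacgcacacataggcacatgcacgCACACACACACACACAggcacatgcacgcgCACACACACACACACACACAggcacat

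Every one of the 8 recurrent member regions held CACACACA or its reverse complement TGTGTGTG in this window of 120 bases, beside 82.1% of the 4485 other regions of the genome found in as many libraries. The letters were searched on both strands, and overlapping matches counted once. Of the 50 member regions found in at least 2 libraries, 38 (76%) held them, beside 67.5% of 24558 others. Over the whole region, an unbroken CA or TG repeat of 10 or more units was present in 58% of the 50 member regions and 47.5% of the others. Repeat-masked bases made up a median of 72.2% of the 50 regions, against 12.9% of the member regions found in a single library, and the other regions of the genome had medians of 69.9% and 21.5%. CA-rich summits were therefore common in both sets, and no test of the difference was made. Reads from such repeats can be hard to place, and the part of this in the peaks was not tested.

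**Figure D2:**
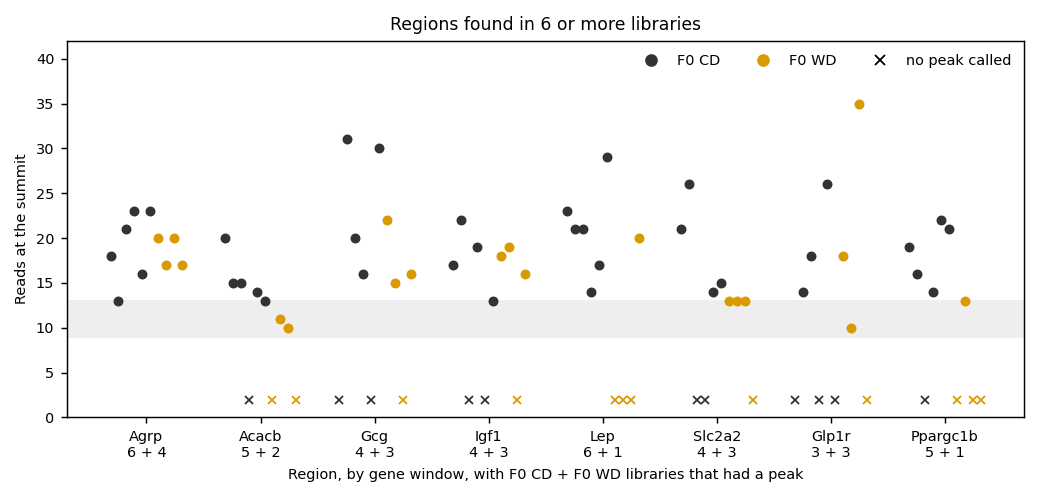
Reads at the summit of the peak (vertical axis) in each library for the 8 member regions found in 6 or more libraries, named by gene with the number of F0 CD + F0 WD libraries that had a peak; crosses, at an arbitrary height, mark libraries with no peak called and the grey band the smallest summits called per library (9 to 13 reads). The Agrp region has a peak in every library, and the Lep region in every F0 CD library but only F0 WD replicate 4.

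A single region in the windows was found in all 10 libraries, and it lay in the window of Agrp, which encodes the agouti-related peptide that stimulates feeding. It spans chr8:105592711-105593413 and held 18, 13, 21, 23, 16 and 23 reads at the summit in F0 CD replicates 1 to 6 and 20, 17, 20 and 17 in F0 WD replicates 1 to 4. The diets overlapped, and no library stood apart. The region lies in an intron of the annotated Agrp gene, 12866 bp from the nearest Agrp start and 6511 bp from that of Gm45855, and it falls in the window because the GENCODE model of Agrp reaches to distant 5′ starts. Over the genome 2.27% of the regions found in at least 2 libraries were found in all 10.

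The member region with the smallest p between diets lay downstream of Lep, which encodes leptin, the satiety hormone of fat cells. The region chr6:29080209-29080849, 14747 bp from the nearest Lep start site and past the end of the gene, had a peak in 6 of 6 F0 CD libraries, with 23, 21, 21, 14, 17 and 29 reads at the summit, and in 1 of 4 F0 WD libraries, replicate 4, with 20 reads. No peak was called there in F0 WD replicates 1, 2 and 3. Detection differed at an unadjusted p of 0.0333 (Fisher's exact test, two-sided), and the Benjamini-Hochberg adjusted p over 24763 regions was 1. It was the only 1 of the 50 member regions that passed the unadjusted threshold of 0.05, where 1.02% of all regions did so (0.468% towards F0 CD and 0.553% towards F0 WD). Regions found in only 2 libraries, 22 of the 50, could not pass in either direction. A pass towards F0 CD needs peaks in at least 5 libraries. This held for 9 of the 50 (18%), beside 26.4% of the other regions of the genome. Without F0 WD replicate 1, 2 or 3 the p of the Lep region was 0.0833 in each case. The lowest background was 3.31, 2.11 and 2.31 reads in the 3 F0 WD libraries without a peak, 3.71 in F0 WD replicate 4 and 2.46 to 4.42 in F0 CD. With lists of equal length the p was 0.0333. The part of depth in this difference was not tested.

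The whole Lep window held 1, 2, 1, 1, 1 and 1 peaks outside promoters in F0 CD and 0, 2, 0 and 1 in F0 WD (difference −0.417, exact permutation p = 0.638, adjusted p = 1). F0 WD replicate 2 had its 2 peaks at other places, upstream of the gene and at chr6:29077433-29077781, the latter shared with F0 CD replicate 2. No promoter peak was called at Lep in any library.

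**Figure D3:**
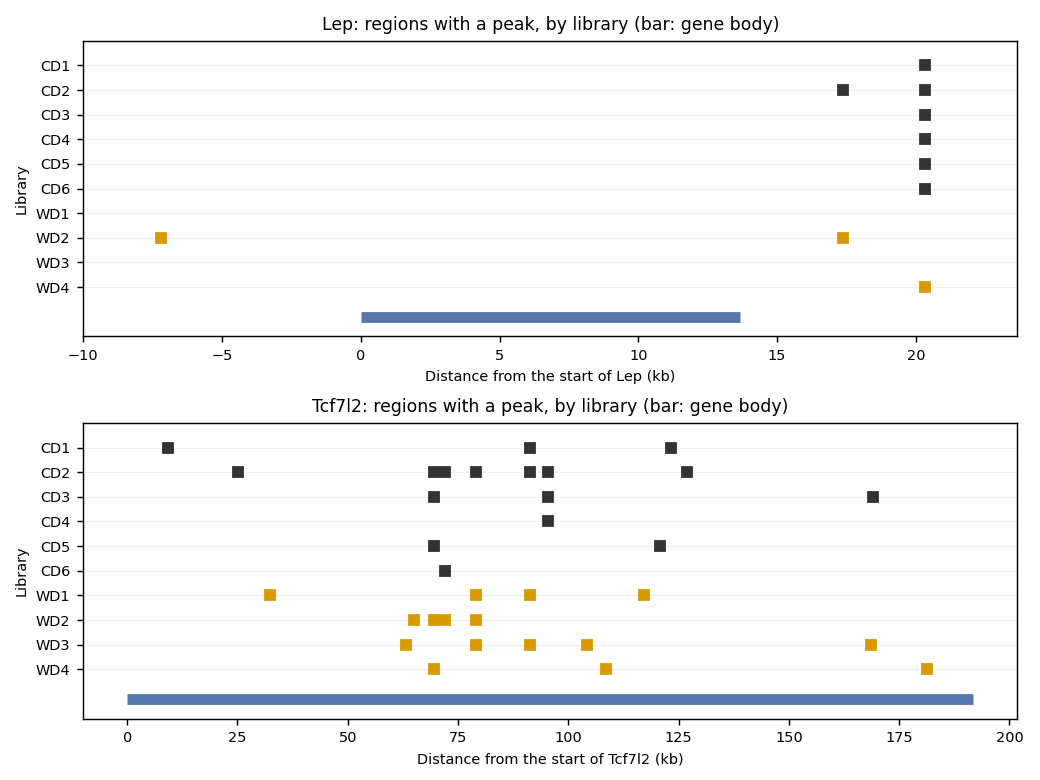
Regions with a peak along the windows of Lep (top) and Tcf7l2 (bottom), by distance from the start of the gene in kb; each square is a region in which that library had a peak, F0 CD in black and F0 WD in orange, and the blue bar is the gene body. At Lep the 6 F0 CD libraries and F0 WD replicate 4 share 1 region past the end of the gene, whereas the peaks of Tcf7l2 are spread over 19 regions, 5 of them shared by at least 2 libraries.

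For each gene, the number of peaks outside promoters was compared between diets by an exact permutation test (210 arrangements of the libraries), and the presence of a promoter peak by Fisher's exact test. Of the 56 genes, 38 had peaks outside promoters in at least 2 libraries and could be tested, and 0 passed an unadjusted p of 0.05, where 83 of 10975 protein-coding genes did (0.756%, made up of 0.273% towards the Western diet and 0.483% towards chow). For promoters 11 members could be tested and 0 passed, beside 46 of 4082 genes (1.13%, made up of 0.686% towards the Western diet and 0.441% towards chow). The smallest p among the members was 0.267 for peaks outside promoters and 0.467 for promoters, while the smallest the design allows are 0.00952 and 0.00476. These minima need peaks in enough libraries. A gene with peaks in only 2 libraries cannot pass 0.05 in either test. With peaks in 3 libraries it cannot pass the permutation test. A pass towards F0 CD needs peaks in at least 5 libraries in either test. The tested promoters of Retn, Slc2a1, Hk2, Apob and Lipe had peaks in 2 libraries. Outside promoters, Ins1, Irs1, Irs2, G6pc, Fasn, Cd36 and Ucp3 had peaks in 3 libraries. Adipoq, Ins2, Pck1, Apoe and Ppargc1a had peaks outside promoters in 2. For Ppargc1a, with 2 such peaks, 0.267 was the smallest p possible. Genes of this kind are also among all genes tested. Of the 38 tested members, 17 had the higher mean in F0 WD, 20 in F0 CD and 1 was equal, with a median difference of −0.0833 peaks. Over all 10975 genes tested the median was also −0.0833, and 44.8% had the higher mean in F0 WD. Per 10000 peaks of the list the direction turned for both, with medians of 0.0723 and 0.0152, and 22 of the 38 members and 53% of all genes had the higher mean in F0 WD. Every Benjamini-Hochberg adjusted p of a member was 1.

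**Figure D4:**
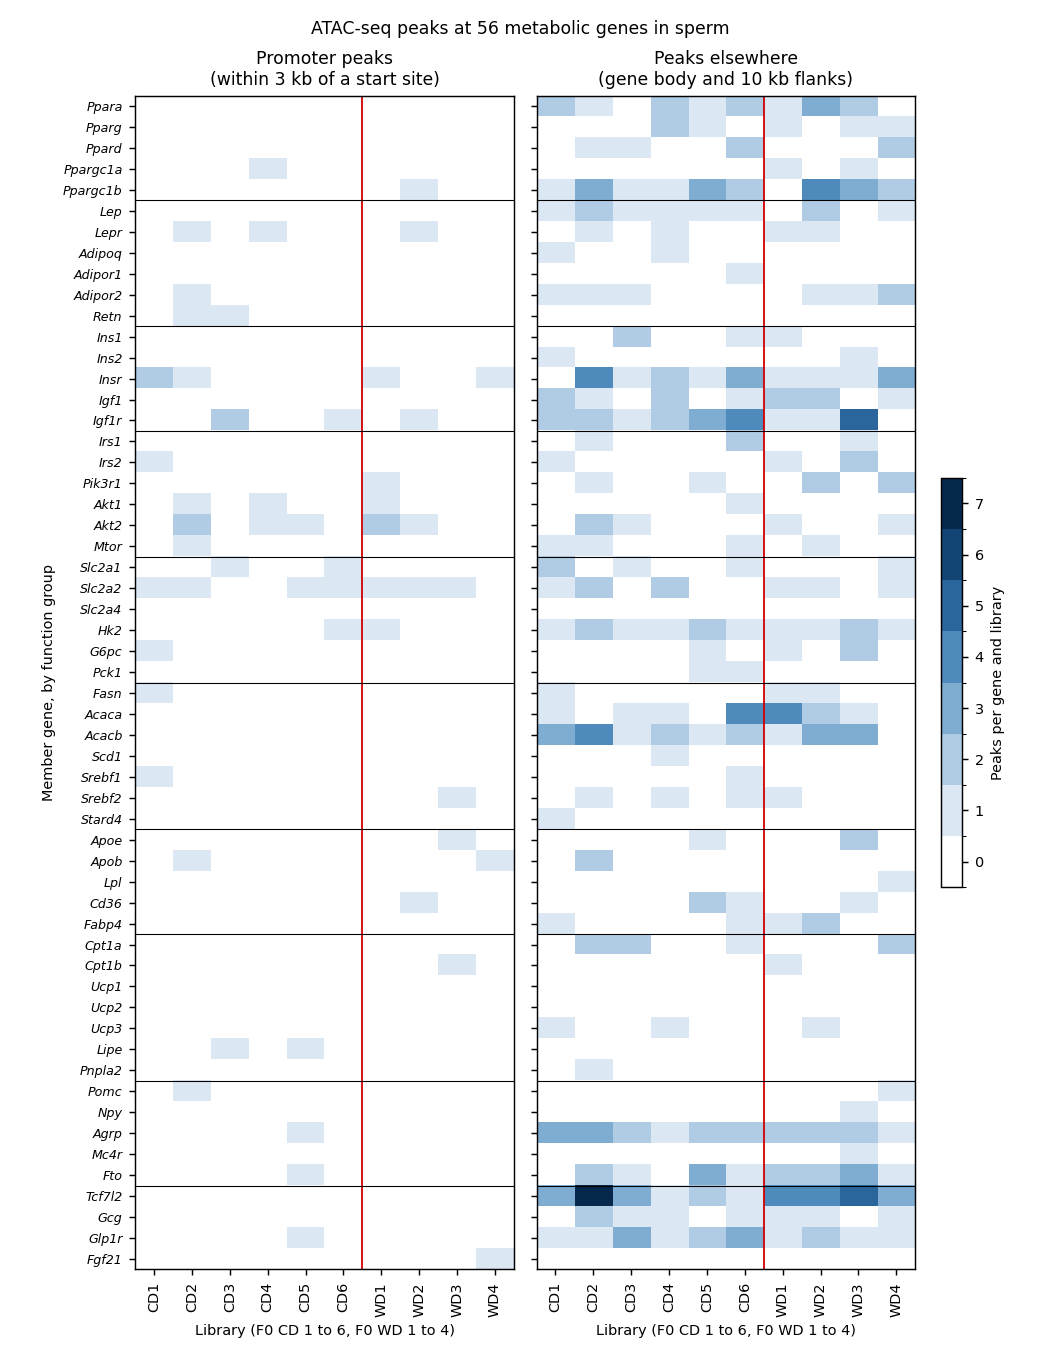
Number of peaks per gene (rows, ordered by function and divided by black lines) and library (columns, with the red line between F0 CD and F0 WD), with promoter peaks on the left and peaks elsewhere in the gene window on the right; darker blue marks more peaks, from 0 to 7. Promoter peaks are sparse and scattered, and the peaks elsewhere gather in a few genes such as Tcf7l2, Igf1r, Agrp, Acacb and Ppargc1b in both diets.

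Among the nuclear receptors of fatty acid metabolism and their coactivators, all 5 genes had a peak and 0 of 5 tested differed, with 4.5 ± 1.64 peaks per F0 CD library and 5.75 ± 2.22 per F0 WD library. Ppargc1b, a coactivator of mitochondrial biogenesis, had 1, 3, 1, 1, 3 and 2 peaks outside promoters in F0 CD and 0, 4, 3 and 2 in F0 WD (p = 0.810, exact permutation). The lowest and the highest value both belonged to F0 WD. Ppara, the receptor that drives fatty acid oxidation in liver, followed with 14 peaks in all and none at a promoter. Pparg, the master regulator of fat cell differentiation, and Ppard had 6 peaks each, and Ppargc1a had 3. The Ppargc1a peaks outside promoters came from F0 WD replicates 1 and 3 alone, which gave the smallest p of all members (0.267) from 2 peaks.

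Of the adipokines and their receptors, which held 3.33 ± 2.07 and 2.5 ± 1.91 peaks per library, Lep had 10 peaks, Adipor2 8 and Lepr 7. Adipor2 encodes an adiponectin receptor and Lepr the leptin receptor, whose promoter carried one in replicates 2 and 4 of F0 CD and replicate 2 of F0 WD. Adipoq, the adiponectin gene, had 2 peaks, Adipor1 1 peak, and Retn, which encodes resistin, promoter peaks in F0 CD replicates 2 and 3 alone (Fisher's exact p = 0.467). None of the 4 genes tested outside promoters or the 2 tested at promoters passed.

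Insulin and IGF ligands and receptors carried 6.83 ± 2.04 peaks per F0 CD library and 5.75 ± 0.957 per F0 WD library, most of them at the receptors. Igf1r, the receptor of insulin-like growth factor 1, had 2, 2, 1, 2, 3 and 4 peaks outside promoters in F0 CD and 1, 1, 5 and 0 in F0 WD (difference −0.583, p = 0.724, exact permutation). F0 WD replicates 3 and 4 marked both ends of the range, and the difference was −1.67 without replicate 3 (exact permutation p = 0.0714) and 0 without replicate 4. Insr, the insulin receptor, had 0, 4, 1, 2, 1 and 3 peaks outside promoters in F0 CD and 1, 1, 1 and 3 in F0 WD, again overlapping. A region at an Insr start site (chr8:3191617-3192121, 596 bp from it) had a peak in 2 libraries of each diet. The ligands held less: Igf1 had 11 peaks, Ins1 4 and Ins2 2, and no promoter peak. Of the Igf1 peaks, 7 fell in 1 intronic region, chr10:87916437-87916858, found in 4 of 6 libraries of F0 CD and 3 of 4 of F0 WD.

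Below the insulin receptor, Akt2, the AKT kinase of insulin-stimulated glucose uptake, led with 12 peaks. Its promoter had 0, 2, 0, 1, 1 and 0 peaks in F0 CD and 2, 1, 0 and 0 in F0 WD, so that 3 of 6 and 2 of 4 libraries had one (Fisher's exact p = 1). Pik3r1, the regulatory subunit of PI3-kinase, had 0, 1, 0, 0, 1 and 0 peaks outside promoters in F0 CD and 0, 2, 0 and 2 in F0 WD (difference 0.667, p = 0.381, exact permutation). Most libraries of F0 CD and 2 of F0 WD had none, and the groups overlapped. Irs1 and Irs2, the receptor substrates, had 4 and 5 peaks, Akt1 4 and Mtor 5. The group as a whole held 3.5 ± 2.88 and 4 ± 1.41 peaks per library.

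The genes of glucose transport and metabolism held 4.67 ± 1.37 and 4 ± 1.15 peaks per library, and among them Slc2a2 had the most frequent promoter peak of all 56 genes. Slc2a2 encodes GLUT2, the glucose transporter of liver and pancreatic beta cells. A promoter peak was called in replicates 1, 2, 5 and 6 of F0 CD and replicates 1, 2 and 3 of F0 WD, 7 libraries in all (Fisher's exact p = 1), in a single region 2341 bp from the start site, chr3:28700358-28700899. The summits there held 21, 26, 14 and 15 reads in F0 CD and 13 reads in each of the 3 F0 WD libraries, where a peak was called. These reads were not scaled for depth, and the difference was not tested. Hk2, the hexokinase of muscle and fat, had 1, 2, 1, 1, 2 and 1 peaks outside promoters in F0 CD and 1, 1, 2 and 1 in F0 WD, and was 1 of the 5 members with a peak in every library, with Insr, Agrp, Tcf7l2 and Glp1r. Slc2a1 (GLUT1) had 2, 0, 1, 0, 0 and 1 peaks outside promoters in F0 CD and 0, 0, 0 and 1 in F0 WD (difference −0.417, exact permutation p = 0.714). G6pc and Pck1, enzymes of gluconeogenesis, had 5 and 2 peaks. Slc2a4, the insulin-responsive transporter GLUT4, had none in any library.

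In fatty acid and sterol synthesis, with 4.83 ± 2.93 and 4.5 ± 3.11 peaks per library, most peaks fell at both acetyl-CoA carboxylases. Acacb, whose product limits fatty acid entry into mitochondria, had 3, 4, 1, 2, 1 and 2 peaks outside promoters in F0 CD and 1, 3, 3 and 0 in F0 WD (difference −0.417, p = 0.810, exact permutation), and without F0 WD replicate 4 the difference was 0.167. An intronic region of Acacb, chr5:114171783-114172488, was detected in 5 of 6 and 2 of 4 libraries (Fisher's exact p = 0.5). Acaca, the carboxylase of lipid synthesis, had 1, 0, 1, 1, 0 and 4 in F0 CD and 4, 2, 1 and 0 in F0 WD. Fasn, the fatty acid synthase, had 4 peaks, Srebf2 5, Srebf1 2, and Scd1, the stearoyl-CoA desaturase, 1. Stard4, a sterol carrier, had 1 peak in its window, in F0 CD replicate 1, and a region detected in 3 of 6 F0 CD but 0 of 4 F0 WD libraries lay 16742 bp below the gene, outside the window (Fisher's exact p = 0.2).

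Lipoprotein and lipid uptake genes were poor in peaks, with 1.5 ± 1.38 per F0 CD library and 2.5 ± 1.29 per F0 WD library, and 0 of 3 tested passed. Fabp4, a fatty acid binding protein of fat cells, and the fatty acid transporter Cd36 had 5 peaks each, Apoe and Apob 4 each, and Lpl, the lipase that frees fatty acids from lipoproteins, 1. The group with the lowest pooled density was lipolysis, fatty acid oxidation and uncoupling, at 0.560 peaks per 100 kb of window and library. It held 1.67 ± 1.03 peaks per F0 CD library and 1.25 ± 0.5 per F0 WD library. Cpt1a, the gatekeeper of fatty acid oxidation in liver, had 7 peaks, Ucp3 3, Cpt1b and Lipe 2 each, and Pnpla2 1. The uncoupling genes Ucp1 and Ucp2 had none in any library, which with Slc2a4 made up the 3 members without a peak.

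For the appetite genes, with 3.83 ± 2.23 and 4.5 ± 1.73 peaks per library, most peaks were held by Agrp and Fto. Agrp had 3, 3, 2, 1, 2 and 2 peaks outside promoters in F0 CD and 2, 2, 2 and 1 in F0 WD (difference −0.417, p = 0.638, exact permutation), the region shared by all libraries included; with lists of equal length the difference was 0.0833. Fto, an RNA demethylase whose gene is linked to body weight, had the longest window, 374.9 kb, and 0, 2, 1, 0, 3 and 1 peaks outside promoters in F0 CD and 2, 2, 3 and 1 in F0 WD (difference 0.833, exact permutation p = 0.390). Pomc, the precursor of the satiety peptide alpha-MSH, had 2 peaks, and Npy and Mc4r 1 each.

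The incretin and other metabolic hormone genes carried 5.67 ± 2.5 peaks per F0 CD library and 6.25 ± 0.5 per F0 WD library. Tcf7l2, placed in this group though not a hormone gene, had the most peaks of all members. Tcf7l2 encodes a Wnt pathway transcription factor linked to beta cell function and type 2 diabetes. It had 3, 7, 3, 1, 2 and 1 peaks in F0 CD and 4, 4, 5 and 3 in F0 WD, all outside promoters and 33 in all. The F0 WD libraries lay within 3 to 5, and F0 CD replicate 2 alone was above them. The means were 2.83 ± 2.23 (SD, n = 6) and 4 ± 0.816 (SD, n = 4), and the difference of 1.17 peaks, the highest of the members towards F0 WD, did not pass the test (exact permutation p = 0.448, adjusted p = 1).

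Tcf7l2 was the 1 member that passed the unadjusted threshold once counts were scaled by list length, and it did not pass with lists of equal length. Per 10000 peaks of the list it had 2.21, 2.37, 1.63, 0.604, 1.41 and 0.497 peaks in F0 CD and 2.05, 2.54, 2.65 and 2.25 in F0 WD. The F0 CD replicates 1 and 2 reached the F0 WD range, and the other 4 F0 CD libraries lay below it. On this scale the means were 1.45 ± 0.784 and 2.37 ± 0.274, with an unadjusted p of 0.0476 (exact permutation) and an adjusted p of 1. Of all genes 2.04% passed on this scale, 1.17% towards F0 WD and 0.875% towards F0 CD, so that 128 of 224 calls were towards F0 WD, against 30 of 83 for the counts. Without F0 CD replicate 2 the difference in counts was 2 peaks, also at an exact permutation p of 0.0476. The 33 peaks fell in 19 regions, of which 5 were found in at least 2 libraries and held 19 of the peaks, and 14 were found in a single library. The most frequent, chr19:55811219-55811485, was detected in 3 of 6 and 2 of 4 libraries. The intronic region chr19:55820752-55821172 was detected in 1 of 6 libraries on chow, with 19 reads, and in 3 of 4 on the Western diet, with 19, 24 and 21 reads (Fisher's exact p = 0.190).

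Glp1r, the receptor of the incretin GLP-1, had 1, 1, 3, 1, 2 and 3 peaks outside promoters in F0 CD and 1, 2, 1 and 1 in F0 WD (difference −0.583, p = 0.524, exact permutation). Gcg, which encodes glucagon and GLP-1, had 8 peaks in its window and none at its promoter. Fgf21, a liver hormone of fasting, had 1 peak, at its promoter in F0 WD replicate 4. The regions of Igf1, Slc2a2, Acacb, Insr and Tcf7l2 given here by position were chosen after their values were seen. The region below Stard4 lies outside the window rule, and its pattern in these data was known beforehand.

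**Figure D5:**
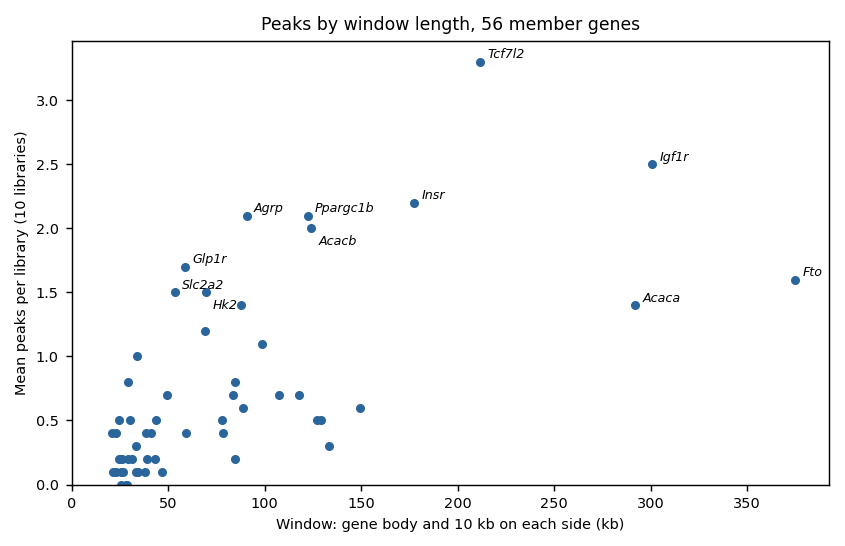
Mean number of peaks per library over the 10 libraries (vertical axis) against window length in kb (horizontal axis) for the 56 genes; each point is 1 gene. Long windows tend to hold more peaks, with Tcf7l2 above Fto and Acaca although its window is shorter.

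The number of peaks of a gene went with its window length, with a Pearson's r of 0.654 across the 56 genes, which are not independent and share the 10 libraries. Per 100 kb of window, the pooled density was 1.83 peaks in the incretin and hormone group and 1.73 in the glucose group, and 0.560 in the lipolysis and uncoupling group, summed over libraries and divided by 10. Within the incretin and hormone group the density was 1.56 for Tcf7l2, 2.88 for Glp1r, 2.75 for Gcg and 0.463 for Fgf21. The pooled density was 0.928 for all members and 0.783 for all protein-coding genes. Promoter peaks were found at 29 of the 56 genes (51.8%), beside 41.4% of all protein-coding genes, and at 18 of the 29 in a single library. In at least 2 libraries they were found at 11 of the 56 (19.6%), close to the 18.8% of all protein-coding genes. Most regions in the windows were intronic (183 of 285), and 42 lay downstream, 27 upstream and 25 in coding exons. Of the 50 regions found in at least 2 libraries, 39 (78%) had peaks of both diets, 10 (20%) of F0 CD alone and 1 (2%) of F0 WD alone, beside 72.9%, 21.8% and 5.26% over the genome, with 6 F0 CD libraries against 4.

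A further 56 genes of the same pathways included Foxo1 and Prdm16. At least 1 peak was found at 53 of them, 39 could be tested outside promoters and 15 at promoters, and 0 passed in either direction. The smallest unadjusted p was 0.143 (exact permutation), for Acadm, an enzyme of fatty acid oxidation. It had 1 peak in each of 4 F0 CD libraries and none in F0 WD. With peaks in 4 libraries, 0.143 is the smallest p possible towards F0 CD, so Acadm could not have passed in that direction. Prdm16, a regulator of brown fat identity, had the most peaks, 74, with 5 to 10 in each library.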

How the data were processed

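ATAC-seq peak lists of cauda epididymal sperm were analysed, 1 per mouse (6 F0 CD, 4 F0 WD). The group sizes follow the sample titles; a sentence of the labels gives 4 and 6 the other way round. Per the submitters' processing notes and the methods, the authors used Trim Galore 0.6.10, Bowtie2 2.4.5 (mm10, GRCm38), Picard 2.24.0 and SAMtools, kept fragments of 50 to 115 bp after shifting reads for the transposase, with MACS2 2.2.7.1 run on each library at q 0.05 to call peaks. The deposited score is the whole number that MACS2 gave each peak in the authors' run. The fold enrichment deposited by the authors is a ratio of summit reads to local background after adding 1 to each. Both p-values and q-values stand in the deposited lists on the −log10 scale. The fold and the Poisson p together gave the reads at each summit. No total read depth is given in the lists, so the limit of detection is described by the smallest summits called.

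Distinct intervals overlapping a GENCODE M21 gene window (body and 10 kb) by at least 1 bp were counted, with promoters within 3 kb of a start site of the gene. All tests ran over every protein-coding gene on chromosomes 1 to 19 and X, or every merged region, with a peak in at least 2 libraries. They were two-sided at an unadjusted p of 0.05, with Benjamini-Hochberg adjustment. The gene tests were tried on simulated data. For peaks outside promoters, differences were planted in genes with a mean of at least 1 peak, and most members lay below this. The region test was not simulated. Members, function groups, other pathway genes and markers were chosen with earlier results of these data known. Values per library were given for the 8 members with the highest mean number of peaks outside promoters, members with a promoter peak in at least 5 libraries, members with an unadjusted p under 0.05, and the 3 members with the largest difference in each direction. Positions were given for regions in at least 8 libraries or with an unadjusted p under 0.05, and further genes and regions were added after their values were seen. Sequences of 120 bases replaced the 30 planned. A gene and a sequence are not reported here. Alternatives were the q threshold, equal lists, scaling by list length, summit position, window, start sites, promoter width, filters, mid-p, merging, a block by replicate number and leaving out each library. Scripts ran in Python 3.11.15 with scipy 1.17.1, numpy 2.4.6, pysam 0.24.0 and pandas 2.3.3, sequences were read with samtools 1.23.1, and figures drawn with matplotlib 3.10.9.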

Additional observations from a re-analysis of the deposited data

Results flagged for a closer look

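In 28 groups of 4 or 6 values, 5 held a library whose gap to the others passed Dixon's 95% critical value, which chance gives in about 1 in 20 groups; counts of few peaks with ties reach it easily. F0 CD replicate 2, with the longest list, had 10 genes with a promoter peak against 4 to 6 in the other F0 CD libraries, and 7 peaks outside promoters at Tcf7l2 against 1 to 3. Among the F0 WD libraries, replicate 4 had 1 peak outside promoters at Agrp where the others had 2, replicate 4 had 3 at Insr where the others had 1, and replicate 2 had 2 at Glp1r where the others had 1.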

How the results depend on the processing

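The number of members whose peaks outside promoters differed towards F0 WD was 0, and 1 (Tcf7l2, difference 0.919 per 10000 peaks) after scaling by list length; leaving out 1 library gave 0 to 1, the 1 being Tcf7l2 without F0 CD replicate 2. Member regions more often detected in F0 CD numbered 1 (Lep) and, leaving out 1 library, 0 to 2; the Lep call was lost without F0 WD replicate 1, 2 or 3, and a Ppargc1b region was called without F0 CD replicate 3 or without F0 WD replicate 2. Those more often detected in F0 WD numbered 0 and, leaving out 1 library, 0 to 1, a Tcf7l2 region when replicate 2 of F0 CD or replicate 4 of F0 WD was dropped. Directions that turned belonged to differences that passed no test: Agrp was 0.0833 with lists of equal length and 0.167 with start sites of any gene, Acacb ranged from −0.833 to 0.167 and the Slc2a2 promoter from −0.05 to 0.333 when 1 library was left out. The difference in member peaks per library ranged from −1.4 to 4.8 when 1 library was left out, within the spread of the libraries. Leaving out 1 library, the difference in the share of libraries with a peak in the Lep region (−0.75) ranged from −1 to −0.667, and the difference in Lep peaks outside promoters (−0.417) from −0.833 to −0.167. With replicate numbers 1 to 4 as a block, member regions called towards F0 CD numbered 0 and the Lep region's difference of −0.75 had p = 0.25 (exact sign-flip); the smallest p this block allows is 0.125, so every count of calls is 0 under it. Same-numbered libraries correlated at −0.0109 to 0.0357. The pair was the highest for its F0 CD library in replicate 2 alone, and for no F0 WD library. Whether the numbers pair the samples cannot be told from these values. Over all genes, calls outside promoters towards F0 WD and F0 CD numbered 30 and 53, and 128 and 96 after scaling. Leaving out 1 library moved these background counts by more than 1.5 times: outside promoters to 12 (leaving out replicate 4 of F0 CD or replicate 3 of F0 WD) up to 44 (F0 CD replicate 2) towards F0 WD and 15 (F0 WD replicate 2) up to 46 (F0 CD replicate 5) towards F0 CD; at promoters from 28 to between 21 and 49 towards F0 WD and from 18 to between 16 and 48 (F0 CD replicate 1) towards F0 CD; and for regions from 137 to between 84 (F0 WD replicate 2) and 245 (F0 CD replicate 2) towards F0 WD and from 116 to between 112 and 284 (F0 CD replicate 5) towards F0 CD. With lists of equal length calls towards F0 CD were 33 outside promoters, 7 at promoters and 74 for regions, with the gene body alone 19 genes were called towards F0 WD, with promoters of 1 kb 11 and 5, and with mid-p 62 promoters and 345 regions towards F0 CD. A missing peak shows only that a site stayed under the threshold of its library.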
